A study of Mus musculus with 12 samples.

Results

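Tumours of mice given DSF alone were compared with tumours of control mice. The comparison uses the 3 libraries titled as DSF treatment and the 3 titled as control, 6 of the 12 libraries that were sequenced. It covers all genes of the deposited table, of which 14144 of 18433 had enough counts to be tested. The tumours grew from 4T1, a mouse mammary carcinoma line, after injection under the skin of the right flank of BALB/c mice. The mice were randomised to 4 arms of 5: DSF by mouth, control, DSF by mouth with an antibody against the checkpoint receptor PD-1 into the peritoneum, and that antibody alone. Each arm is represented by 3 whole-tumour RNA libraries. DSF is the usual abbreviation of disulfiram. Its dose, the length of treatment and the hour at which tumours were taken are not given in the labels used here. Nothing says that the libraries of an arm came from different animals, so the p-values measure the spread between libraries, which may be technical. Values given below for the tumours of an arm are those of its libraries.

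Disulfiram inhibits aldehyde dehydrogenases and its metabolite binds copper. In cells, copper and zinc are buffered by metallothioneins, whose genes are switched on when the metals are in excess. Type I interferons signal through a complex that holds STAT2 and IRF9, which binds interferon-stimulated response elements and switches on antiviral genes. Interferon gamma switches on guanylate-binding proteins, immunity-related GTPases and, through CIITA, the MHC class II genes. The circadian clock runs on CLOCK and ARNTL (BMAL1), which bind E-boxes of the Per, Nr1d and PAR bZIP genes. Glucocorticoids act on several of the same genes.

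Promoters are shown for genes of the antiviral, GTPase and clock lists, whose members were lower or higher together in the DSF tumours, and for Mt2, which was higher together with Mt1. Sequences and coordinates are those of RefSeq on GRCm38.p6, read 5′ to 3′ on the strand of the gene, and positions are counted from the annotated start of the gene. In the first 5, capitals mark the core of the interferon-stimulated response element, GAAA and a further GAAA with 2 bases of any kind between them, or its reverse complement. Isg15 (chr4:156200819-156200928, minus strand) holds 3 overlapping matches, which begin at -78, -72 and -66. Ifit1 (chr19:34640779-34640888, plus strand) holds 2, at -104 and -85, Rsad2 (chr12:26456453-26456582, minus strand) 1 at -120, Gbp2 (chr3:142620553-142620662, plus strand) 1 at -59, and Irgm1 (chr11:48871421-48871530, minus strand) 2 overlapping ones at -30 and -24.
Isg15: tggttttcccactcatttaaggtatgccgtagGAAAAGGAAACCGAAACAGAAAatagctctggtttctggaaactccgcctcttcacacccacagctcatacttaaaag
Ifit1: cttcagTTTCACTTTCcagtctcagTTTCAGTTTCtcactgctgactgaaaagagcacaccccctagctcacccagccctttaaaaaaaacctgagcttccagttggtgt
Rsad2: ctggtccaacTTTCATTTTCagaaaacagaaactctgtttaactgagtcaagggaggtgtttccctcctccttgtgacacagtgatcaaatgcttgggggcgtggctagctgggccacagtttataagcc
Gbp2: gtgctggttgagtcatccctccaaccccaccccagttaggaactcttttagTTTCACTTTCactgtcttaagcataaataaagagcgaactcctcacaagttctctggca
Irgm1: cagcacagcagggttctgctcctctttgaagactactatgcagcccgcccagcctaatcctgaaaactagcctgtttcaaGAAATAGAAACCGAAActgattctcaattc

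In the next pair capitals mark the E-box CACGTG, which reads the same on both strands. Per1 (chr11:69098769-69098948, plus strand) holds a match at -166 and Tef (chr15:81802523-81802672, plus strand) a match at -127; each has 2 starts in the table and the start with the match is shown. In Mt2 (chr8:94172388-94172617, plus strand) capitals mark TGCACNC or TGCGCNC, or the reverse complement, the core of the metal response element, at -223, -128 and -50.
Per1: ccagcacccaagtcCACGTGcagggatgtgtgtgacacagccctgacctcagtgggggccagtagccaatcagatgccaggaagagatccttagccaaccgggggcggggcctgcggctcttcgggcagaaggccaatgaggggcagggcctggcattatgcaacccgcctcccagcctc
Tef: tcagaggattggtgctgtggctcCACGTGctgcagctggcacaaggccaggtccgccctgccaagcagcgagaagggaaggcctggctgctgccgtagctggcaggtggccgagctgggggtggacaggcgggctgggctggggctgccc
Mt2: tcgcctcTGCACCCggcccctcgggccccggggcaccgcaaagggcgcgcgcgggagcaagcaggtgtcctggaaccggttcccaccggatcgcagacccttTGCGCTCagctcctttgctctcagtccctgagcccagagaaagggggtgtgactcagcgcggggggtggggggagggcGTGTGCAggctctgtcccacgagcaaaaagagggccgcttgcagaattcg

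Over windows from 250 bases before to 50 bases after each start, both strands searched, this interferon element core was found in 3.99% of the 27025 genes of the table and 3.44% of its 32851 promoters. It was found in 9 of the 21 antiviral genes with a promoter in the table, 9 of 10 GTPase genes and 1 of 8 MHC class II genes. CACGTG was found in 8.09% of all genes, 7.15% of promoters and 5 of 15 clock genes. The metal element core was found in 28.2% of all genes and 25.7% of promoters. It was found in 11 of 16 copper and zinc genes and also in 10 of 15 clock genes. Of promoters, 1.97% hold at least 3 matches. Mt1 holds 3 and Mt2 4 of these matches in that window. These matches describe letters in a window and are not sites that were measured.

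Total expected counts of the 12 libraries ranged from 13323171 to 16809705. Levels below are CPM, counts scaled to an equal library size by the TMM method. A log2 fold change is DSF over control. Its standard error (SE) was derived from the edgeR test, as its absolute value divided by the square root of the F statistic. The label of the tumour cells was checked on keratins of luminal epithelium. Krt8 had 698, 654 and 586 CPM in DSF tumours, against 622, 529 and 499.96 CPM in controls. Krt18 stood at 651, 561 and 598 CPM in DSF tumours, against 555, 569 and 597 CPM in controls, and the epithelial adhesion gene Epcam at 2.39, 8.87 and 1.54 CPM in DSF tumours, against 3.78, 3.90 and 7.06 CPM in controls. The 17 epithelial carcinoma genes in the table took 0.137 to 0.152% of the counts in DSF libraries and 0.128 to 0.156% in controls. DSF replicate 2 stands apart through adipocyte transcripts and control replicates 2 and 3 stand apart on the X chromosome, as given below.

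By the edgeR quasi-likelihood test with Benjamini-Hochberg adjustment over all genes, 0 of 14144 genes (0%) passed an adjusted p of 0.05, and the smallest adjusted p was 0.187. With an unadjusted p under 0.05, 728 genes (5.15%) were lower and 773 (5.47%) higher in DSF tumours. Of all genes tested, 44.4% had a log2 fold change below 0 and 55.6% above 0, with a median of 0.03. All 3 DSF libraries lay below all 3 controls for 907 genes (6.41%) and above them for 717 genes (5.07%). Without DSF replicate 2, 0 genes passed, 951 (6.65%) were lower and 871 (6.09%) higher at an unadjusted p under 0.05, and 444 of the lower and 463 of the higher genes were shared with the comparison of all 6 libraries. DESeq2, run beside edgeR, called 148 genes lower (1.10%) and 73 higher (0.543%). Since edgeR called none, the genes below are described by their levels, and lists of genes are read against these percentages. The lists were chosen with earlier results of these data known, so their shares are descriptive and not independent tests.

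The same drug was also given with the antibody. The combination against anti-PD-1 alone rests on 6 other libraries, so its values are set beside those of DSF against control, and the test of the difference is the interaction, the DSF effect on the log2 scale under the antibody minus that without it. The interaction also holds the DSF and control libraries. For genes and lists picked by their difference between those libraries, its p-value is therefore not an independent test and tends to be too small. Between the combination and anti-PD-1 alone, 48.4% of genes were lower and 51.6% higher, with 3.99% lower and 6.27% higher at an unadjusted p under 0.05. The interaction had an unadjusted p under 0.05 for 757 genes below 0 (5.35%) and 997 genes above 0 (7.05%), and edgeR called 0 genes for either, against 70 and 235 by DESeq2. Of the 728 genes lower in DSF than in control tumours, 297 were also lower in the combination than under the antibody alone, 45 of them at an unadjusted p under 0.05. Of the 773 higher genes, 352 were higher there, 19 at that p.

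Antiviral genes induced by type I interferon were lower in DSF tumours. Of 25 tested members, 24 were lower, 18 of them at an unadjusted p under 0.05, and 17 had no overlap between the groups. Their median log2 fold change was -0.64, against 0.03 over all genes. It was -0.63 without DSF replicate 2, and -0.73 when scores of skin and adipocyte markers entered the fit as covariates. With any 1 of the 6 libraries left out the median stayed between -0.76 and -0.58, with 16 to 18 members at that p. In a whole tumour, fewer cells of a type and less RNA per cell cannot be told apart.

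Ifit2, of the IFIT family that restrains translation of viral RNA, had 19.9, 15 and 15.7 CPM in DSF tumours, against 34.7, 23.7 and 32.9 CPM in controls (log2 fold change -0.85 ± 0.17 SE, unadjusted p = 0.000408, adjusted p = 0.187). Ifit1, of the same family, had 10.003, 9.37 and 7.19 CPM in DSF tumours, against 19.6, 16 and 16.7 CPM in controls (log2 fold change -0.98 ± 0.22 SE, unadjusted p = 0.00113, adjusted p = 0.211). Ifit3 had 10.2, 9.43 and 7.41 CPM in DSF tumours, against 20.2, 16.8 and 20.2 CPM in controls (log2 fold change -1.08 ± 0.22 SE). For each of the 3 genes the groups did not overlap. The nucleotide kinase gene Cmpk2 had 22.1, 17 and 18.5 CPM in DSF tumours, against 37.8, 33.9 and 32.7 CPM in controls (log2 fold change -0.85 ± 0.18 SE, unadjusted p = 0.000705, adjusted p = 0.187), with every DSF library below every control. Usp18, which encodes the protease that removes ISG15 from proteins and dampens interferon receptor signalling, had 14.7, 12.9 and 10.1 CPM in DSF tumours, against 26.3, 25 and 21 CPM in controls (log2 fold change -0.94 ± 0.22 SE, unadjusted p = 0.00123, adjusted p = 0.211). Isg15 itself, the ubiquitin-like modifier, had 43.6, 28.2 and 38.6 CPM in DSF tumours, against 64.3, 54.7 and 47.1 CPM in controls (log2 fold change -0.59 ± 0.19 SE, unadjusted p = 0.0111, adjusted p = 0.343), so the gap between the groups was narrow.

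Ifi44, a classical interferon-induced gene, had the lowest unadjusted p of this list. It had 47.9, 37.2 and 44.1 CPM in DSF tumours, against 96.7, 118 and 77.6 CPM in controls (log2 fold change -1.18 ± 0.19 SE, unadjusted p = 5.47e-05, adjusted p = 0.187). Its paralog Ifi44l had 4.45, 4.75 and 3.23 CPM in DSF tumours, against 9.68, 12.2 and 11.8 CPM in controls (log2 fold change -1.43 ± 0.26 SE, unadjusted p = 0.000176, adjusted p = 0.187). Of the oligoadenylate synthetase family, whose enzymes make the activator of RNase L, both named members were lower. Oas3 had 34.8, 23.4 and 30.1 CPM in DSF tumours, against 49, 59.9 and 43.2 CPM in controls, and Oasl2 89.8, 78.2 and 79.9 CPM in DSF tumours, against 132, 164 and 110.2 CPM in controls (log2 fold changes -0.78 ± 0.20 SE and -0.72 ± 0.15 SE). All control libraries exceeded all DSF libraries for both. Rsad2 (viperin), an antiviral enzyme of the endoplasmic reticulum, had 23.7, 18.3 and 14.3 CPM in DSF tumours, against 34, 23.3 and 29.4 CPM in controls (log2 fold change -0.62 ± 0.24 SE, unadjusted p = 0.0257, adjusted p = 0.419), and here DSF replicate 1 and control replicate 2 were nearly level. Trim30a, a TRIM family gene, had 46.1, 56.8 and 41 CPM in DSF tumours, against 68.3, 95.4 and 70.4 CPM in controls (log2 fold change -0.70 ± 0.15 SE), without overlap.

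The member with a positive log2 fold change was Ifi27l2a, a small mitochondrial interferon-induced protein gene. It had 13.3, 294 and 8.29 CPM in DSF tumours, against 18.8, 41.7 and 33.7 CPM in controls, so the value of DSF replicate 2 alone lay above the controls. Its log2 fold change was 1.74 ± 1.02 SE with that library and -1.52 without it (unadjusted p = 0.00345).

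**Figure D1:**
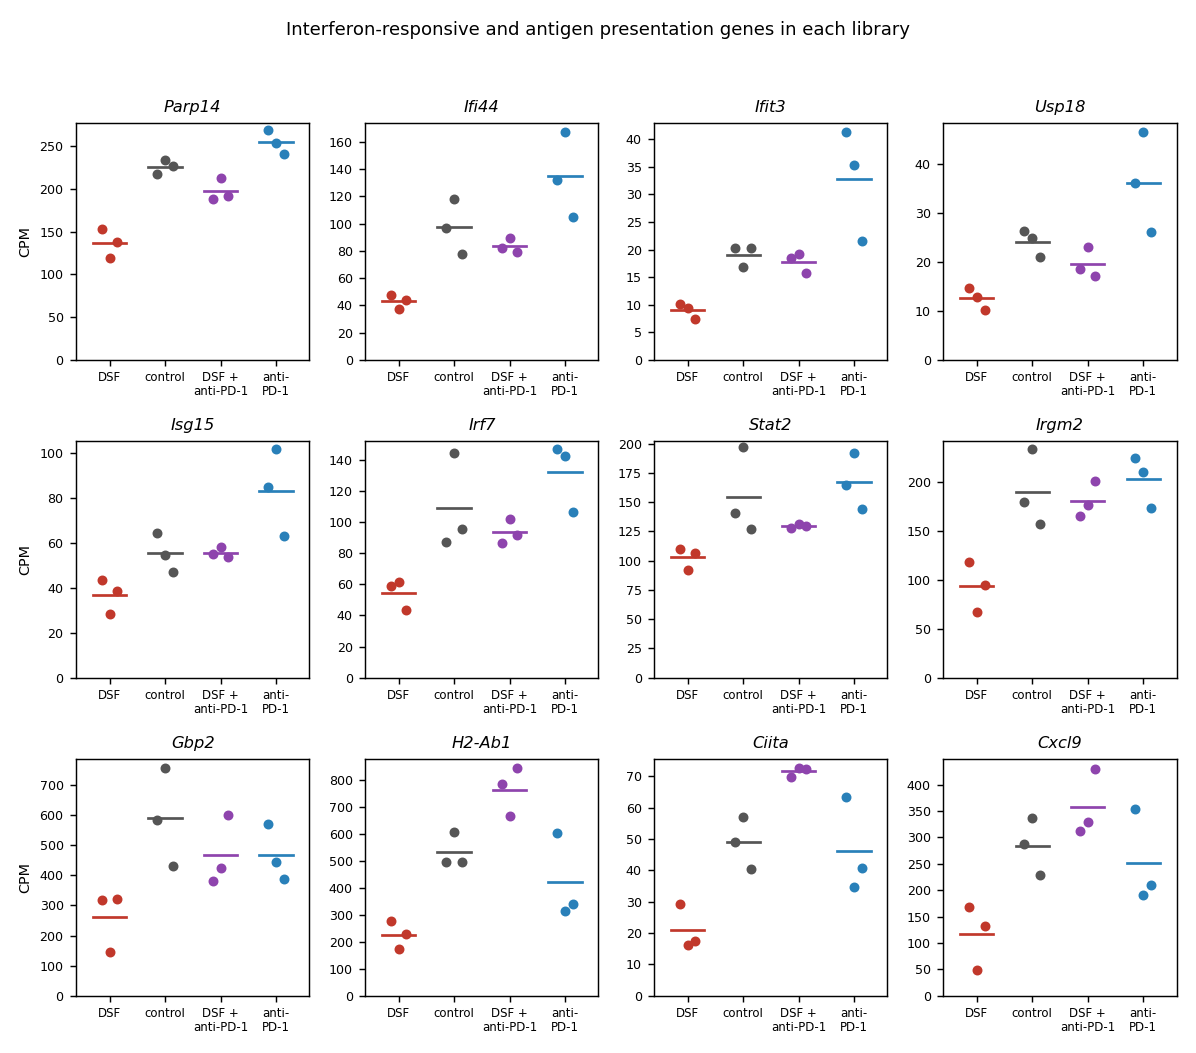
Level in CPM of genes of the interferon response in each library (points) of DSF, control, combination and anti-PD-1 tumours, from left to right, with the group mean as a line. For Ifit3, Parp14 and Stat2 all DSF points lie below all control points.

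The 6 interferon-induced PARP genes, which encode ADP-ribosyltransferases and the ubiquitin ligase DTX3L that pairs with PARP9, were all lower at an unadjusted p under 0.05 and without overlap, with a median of -0.54 (-0.44 without DSF replicate 2). Parp14 (NCBI gene 547253) had the smallest p of all genes tested. It had 153, 119 and 138 CPM in DSF tumours, against 218, 233 and 226 CPM in controls (log2 fold change -0.72 ± 0.10 SE, unadjusted p = 1.6e-05, adjusted p = 0.187), and the highest DSF value was well below the lowest control value. Parp9 had 94.9, 96.7 and 111 CPM in DSF tumours, against 122, 144 and 124 CPM in controls (log2 fold change -0.37 ± 0.09 SE). Dtx3l had 104, 88.3 and 93.1 CPM in DSF tumours, against 124, 133 and 107 CPM in controls (-0.35 ± 0.10 SE), a smaller gap that also left the groups apart. Parp14 passed the adjustment in edgeR fits without DSF replicate 1 and without control replicate 1, and by DESeq2. Without control replicate 1 it did not pass once X chromosome genes were left out before adjustment.

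Sensors of nucleic acids were lower in 13 of 13 cases, 6 at an unadjusted p under 0.05, with a median of -0.38 (-0.23 without DSF replicate 2). Ifih1 (MDA5), a sensor of long double-stranded RNA, had 45.9, 39.3 and 41.1 CPM in DSF tumours, against 50.4, 65.8 and 63.4 CPM in controls (log2 fold change -0.51 ± 0.12 SE, unadjusted p = 0.00133, adjusted p = 0.218). Eif2ak2 (PKR), the kinase that stops translation on double-stranded RNA, had 84.3, 69.6 and 74 CPM in DSF tumours, against 114, 114 and 99.7 CPM in controls (log2 fold change -0.53 ± 0.11 SE). Dhx58 (LGP2), which modulates MDA5, had 15.8, 21.5 and 15.2 CPM in DSF tumours, against 22.6, 31.2 and 29.6 CPM in controls (-0.67 ± 0.17 SE). None of the 3 genes overlapped between groups. Zbp1, a Z-form nucleic acid sensor linked to necroptosis, had 58, 49.95 and 65.1 CPM in DSF tumours, against 88.1, 206 and 93.4 CPM in controls (log2 fold change -1.16 ± 0.32 SE, unadjusted p = 0.00423, adjusted p = 0.272), where control replicate 2 was far above the rest. Tlr9, the endosomal DNA sensor, had 4.78, 3.68 and 0.807 CPM in DSF tumours, against 6.40, 9.85 and 10.6 CPM in controls (log2 fold change -1.52 ± 0.50 SE, unadjusted p = 0.0112, adjusted p = 0.343), with DSF replicate 3 the lowest.

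Among interferon regulatory factors, 8 of 9 were lower, 5 at an unadjusted p under 0.05, with a median of -0.51 (-0.46 without DSF replicate 2, -0.20 with the covariates, -0.23 without DSF replicate 3). Irf7, which amplifies type I interferon production, had 58.9, 61.7 and 43.4 CPM in DSF tumours, against 87.3, 144 and 95.7 CPM in controls (log2 fold change -0.995 ± 0.20 SE, unadjusted p = 0.00045, adjusted p = 0.187). Irf1, an activator downstream of interferon gamma, had 215, 130.3 and 234 CPM in DSF tumours, against 300.4, 346 and 288 CPM in controls (log2 fold change -0.69 ± 0.19 SE), with DSF replicate 2 the lowest library. Irf8, a factor of myeloid and dendritic cells, had 136, 99 and 98.6 CPM in DSF tumours, against 148, 181 and 162 CPM in controls (-0.56 ± 0.15 SE), without overlap. Irf9, the DNA-binding part of the complex with STAT2, differed least of the factors named here, with 64.7, 61.7 and 56.5 CPM in DSF tumours, against 77.7, 84.2 and 61.3 CPM in controls (log2 fold change -0.29 ± 0.13 SE, unadjusted p = 0.0441), and its groups overlapped.

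Receptors, kinases and regulators of the pathway were not lower as a list: 5 of 17 were lower and 12 higher, with a median of 0.10, 4 lower and 1 higher at an unadjusted p under 0.05. Stat2, a signal transducer of type I interferon, was among the lower ones. It had 110.4, 91.7 and 107 CPM in DSF tumours, against 141, 197 and 127 CPM in controls (log2 fold change -0.59 ± 0.16 SE, unadjusted p = 0.00329, adjusted p = 0.248), without overlap. Socs1, which inhibits the JAK kinases after interferon gamma, had 20.7, 20.7 and 20.7 CPM in DSF tumours, against 33.9, 35.2 and 26.4 CPM in controls (log2 fold change -0.62 ± 0.20 SE, unadjusted p = 0.00895, adjusted p = 0.324); the DSF libraries were level and below all controls. Socs3, the inhibitor induced by STAT3, was the member that was higher, with 213, 189 and 217 CPM in DSF tumours, against 184, 149 and 113 CPM in controls (log2 fold change 0.47 ± 0.16 SE, unadjusted p = 0.0131, adjusted p = 0.351).

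In the 6 libraries of the combination and of anti-PD-1 alone, the antiviral list again had 24 of 25 members lower with DSF, 17 at an unadjusted p under 0.05, and a median of -0.58. The interaction had an unadjusted p under 0.05 for 1 of the 25. Cmpk2 had 35.6, 33.1 and 28.8 CPM in combination tumours, against 70.4, 79 and 46.3 CPM under anti-PD-1 alone (log2 fold change -1.004 ± 0.18 SE, unadjusted p = 0.000179, interaction unadjusted p = 0.573). Usp18 had 18.6, 23 and 17.2 CPM in combination tumours, against 36.1, 46.6 and 26.1 CPM under anti-PD-1 alone (-0.89 ± 0.21 SE). Isg15 had 55.2, 58.1 and 53.7 CPM in combination tumours, against 84.8, 102 and 63.1 CPM under anti-PD-1 alone (-0.58 ± 0.19 SE), and Rsad2 had 27.1, 26.8 and 18.6 CPM in combination tumours, against 63, 61.3 and 39.6 CPM under anti-PD-1 alone (-1.18 ± 0.24 SE). The groups did not overlap for any of these 4 genes, nor for the sensor gene Ifih1, which had 55.9, 60.2 and 56.5 CPM in combination tumours, against 84, 95.3 and 77 CPM under anti-PD-1 alone (-0.57 ± 0.12 SE). The antiviral gene whose interaction passed that p was Ifi44l, with 11.4, 12.5 and 15.6 CPM in combination tumours, against 16.3, 9.01 and 9.75 CPM under anti-PD-1 alone, a log2 fold change of 0.17 ± 0.25 SE against -1.43 ± 0.26 SE without the antibody, and an interaction with an unadjusted p of 0.000931. PARP genes were lower in 6 of 6 cases there, 4 at an unadjusted p under 0.05, with a median of -0.31. Sensors were less uniform there, with 8 of 13 lower and 5 higher, 4 lower at that p, and a median of -0.23. Interferon regulatory factors were not lower as a list there. Of 9, 4 were lower and 5 higher, with 1 lower and 1 higher at that p and a median of 0.10.

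Genes that answer mainly to interferon gamma were lower in DSF than in control tumours, and in the combination they were not lower as a list. All 15 tested guanylate-binding proteins and immunity-related GTPases, which attack vacuoles of intracellular pathogens, were lower in DSF than in control tumours at an unadjusted p under 0.05 and without overlap. Their median was -1.15, it was -0.84 without DSF replicate 2, and it lay between -1.31 and -0.85 with 1 library left out, with all 15 at that p each time. Between the combination and anti-PD-1 alone the median was 0.00, with 0 lower and 1 higher at an unadjusted p under 0.05. The interaction was above 0 at that p for 14 of the 15.

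Gbp2 had 317, 146 and 321 CPM in DSF tumours, against 584, 757 and 431 CPM in controls (log2 fold change -1.18 ± 0.31 SE, unadjusted p = 0.00297, adjusted p = 0.247), with DSF replicate 2 the lowest library. Gbp4 had 236, 116 and 260.4 CPM in DSF tumours, against 589, 786 and 311 CPM in controls (log2 fold change -1.46 ± 0.37 SE). Iigp1, an immunity-related GTPase, had 242, 123 and 258 CPM in DSF tumours, against 516, 556 and 313 CPM in controls (-1.15 ± 0.29 SE). In both, DSF replicates 1 and 3 were close to each other, and control replicate 3 was the lowest control. Irgm1, a regulator of these GTPases, had 114, 70.9 and 118 CPM in DSF tumours, against 186, 275 and 149 CPM in controls (-1.01 ± 0.24 SE). Irgm2 had 118, 67.1 and 94.4 CPM in DSF tumours, against 179, 233 and 156 CPM in controls (-1.02 ± 0.20 SE). Igtp had 118, 64.8 and 145 CPM in DSF tumours, against 211, 334 and 189 CPM in controls (-1.16 ± 0.30 SE). In the other pair of arms Gbp2 had 381, 424 and 602 CPM in combination tumours, against 571, 446 and 388 CPM under anti-PD-1 alone (0.0011 ± 0.31 SE, interaction 1.18 ± 0.43 SE, unadjusted p = 0.0202), so those groups overlapped. Members of these families resemble each other closely, and the authors' estimation of counts could have split reads between them.

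MHC class II genes, whose products present peptides to CD4 T cells, were lower in 11 of 11 cases, 9 at an unadjusted p under 0.05 and 8 without overlap. The median was -1.11, and -0.94 without DSF replicate 2. H2-Ab1, a beta chain, had 277, 173 and 229 CPM in DSF tumours, against 496, 609.7 and 497 CPM in controls (log2 fold change -1.24 ± 0.25 SE, unadjusted p = 0.000364, adjusted p = 0.187). H2-Eb1, another beta chain, had 182, 98 and 138 CPM in DSF tumours, against 303, 368 and 322 CPM in controls (log2 fold change -1.25 ± 0.26 SE). Ciita, the master activator of the class, had 29.2, 16 and 17.4 CPM in DSF tumours, against 49.1, 57.1 and 40.5 CPM in controls (log2 fold change -1.23 ± 0.26 SE, unadjusted p = 0.000598, adjusted p = 0.187). The DSF libraries of these 3 genes all lay below the controls. Ctss (cathepsin S), which trims the invariant chain, had 252, 294 and 231 CPM in DSF tumours, against 276, 383 and 489 CPM in controls (log2 fold change -0.56 ± 0.23 SE, unadjusted p = 0.0291, adjusted p = 0.426), with DSF replicate 2 above control replicate 1, and H2-Oa, a peptide-loading modulator of B cells, had 0.903, 0.437 and 1.17 CPM in DSF tumours, against 1.04, 0.991 and 1.47 CPM in controls (log2 fold change -0.48 ± 0.51 SE, unadjusted p = 0.364, adjusted p = 0.785). Together the 11 genes took 0.129 to 0.19% of the counts in DSF libraries and 0.309 to 0.381% in control libraries.

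Under the antibody the same 11 genes ran the other way: 11 of 11 were higher in the combination than under anti-PD-1 alone, 9 at an unadjusted p under 0.05, with a median of 0.66. The interaction was above 0 at that p for 10 of them. Skin and hair follicle markers, given below, reversed in the same way as these MHC class II genes. Of 17 markers, 16 were lower in DSF than in control tumours. All 17 were higher in the combination than under anti-PD-1 alone. Their part in the interactions was not tested. H2-Ab1 had 785, 666 and 846 CPM in combination tumours, against 606, 316 and 342 CPM under anti-PD-1 alone (log2 fold change 0.86 ± 0.24 SE, interaction 2.10 ± 0.35 SE, unadjusted p = 7.67e-05, adjusted p = 0.232 by edgeR). Ciita had 69.8, 72.7 and 72.3 CPM in combination tumours, against 63.4, 34.5 and 40.7 CPM under anti-PD-1 alone (0.63 ± 0.25 SE, interaction unadjusted p = 0.000317), and its anti-PD-1 replicate 1 lay near the combination.

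**Figure D2:**
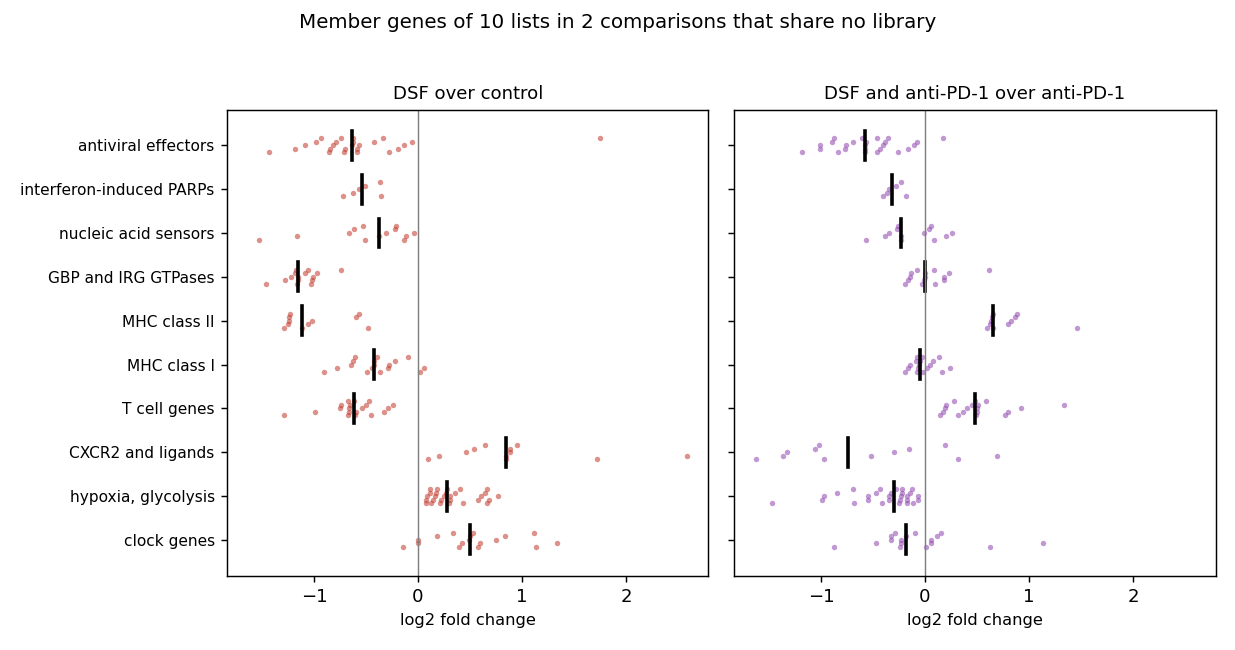
Log2 fold change of each member gene (points) of 10 gene lists, with the list median as a bar, for DSF over control on the left and for the combination over anti-PD-1 on the right. Antiviral and PARP genes lie mostly below 0 in both panels, GTPase genes below 0 on the left and around 0 on the right, and MHC class II genes below 0 on the left and above 0 on the right.

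Of 17 genes of MHC class I presentation and the immunoproteasome, 15 were lower, 9 at an unadjusted p under 0.05, with a median of -0.42. Without DSF replicate 2 the median was -0.22 and 5 were at that p, and without control replicate 2 there were 4. Psmb9, an immunoproteasome subunit, had 88.7, 55.1 and 101 CPM in DSF tumours, against 141, 183 and 133 CPM in controls (log2 fold change -0.90 ± 0.22 SE, unadjusted p = 0.00188, adjusted p = 0.238). Psmb8 had 237, 154 and 253 CPM in DSF tumours, against 332, 377 and 298 CPM in controls (log2 fold change -0.65 ± 0.18 SE). The peptide transporter Tap1 had 237, 118 and 225 CPM in DSF tumours, against 352, 383 and 261 CPM in controls (-0.78 ± 0.25 SE). Their groups did not overlap. The heavy chain gene H2-K1 had 2191, 1721 and 2497 CPM in DSF tumours, against 2360.00, 2368 and 2108 CPM in controls (log2 fold change -0.09 ± 0.15 SE, unadjusted p = 0.54, adjusted p = 0.874). The light chain gene B2m had 2453, 2044 and 2699 CPM in DSF tumours, against 2314, 2683 and 1922 CPM in controls (log2 fold change 0.06 ± 0.15 SE, unadjusted p = 0.711, adjusted p = 0.931), with overlapping groups. Nlrc5, the class I activator, had 188, 98.9 and 209.7 CPM in DSF tumours, against 205, 213 and 189.7 CPM in controls, where DSF replicate 2 was far below the other libraries (log2 fold change -0.29 ± 0.21 SE, and -0.02 without that library).

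Ifng, which encodes interferon gamma, was low in all libraries and had its lowest group mean in DSF tumours. It had 1.74, 0.500 and 1.10 CPM in DSF tumours, against 4.26, 6.07 and 2.18 CPM in controls (log2 fold change -1.90 ± 0.53 SE, unadjusted p = 0.00439, adjusted p = 0.272), and 3.33, 4.08 and 5.06 CPM in combination tumours, against 3.97, 1.57 and 2.11 CPM under anti-PD-1 alone in the other pair of arms (log2 fold change 0.70 ± 0.51 SE, interaction unadjusted p = 0.00454). The chemokines Cxcl9 and Cxcl10 attract T cells through CXCR3. Cxcl9 had 168, 49.4 and 131 CPM in DSF tumours, against 288, 337 and 229 CPM in controls (log2 fold change -1.29 ± 0.38 SE, unadjusted p = 0.00594, adjusted p = 0.295). Cxcl10 had 30.8, 11.4 and 19.6 CPM in DSF tumours, against 50.2, 43.5 and 37.6 CPM in controls (log2 fold change -1.09 ± 0.30 SE). DSF replicate 2 was the lowest library for both, and neither overlapped. Of the 11 tested genes of CXCR3, its ligands and other lymphocyte chemokines, 9 were lower, 2 at an unadjusted p under 0.05, with a median of -0.36 (-0.13 with the covariates), and without DSF replicate 2 there were 4 at that p.

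T cell genes were lower in 19 of 19 cases, 5 at an unadjusted p under 0.05 and 7 without overlap, with a median of -0.61 (-0.58 without DSF replicate 2). In the fit with the covariates the median was -0.10, and with 1 library left out 2 (without DSF replicate 3) to 8 (without DSF replicate 1) members were at that p. Together the list took 0.00766 to 0.00966% of the counts in DSF libraries and 0.0117 to 0.0147% in controls, and no member was listed at 0 in any of the 6. Cd3e, a chain of the T cell receptor complex, had 4.71, 3.31 and 2.93 CPM in DSF tumours, against 6.15, 5.76 and 5.47 CPM in controls (log2 fold change -0.66 ± 0.32 SE, unadjusted p = 0.0643, adjusted p = 0.502). Cd28, the costimulatory receptor, had 2.77, 1.44 and 1.91 CPM in DSF tumours, against 4.45, 4.27 and 3.41 CPM in controls (log2 fold change -0.98 ± 0.32 SE, unadjusted p = 0.0105, adjusted p = 0.334). Both were lower in every DSF library than in any control. Cd4 had 5.68, 10.3 and 5.06 CPM in DSF tumours, against 8.53, 11.6 and 13 CPM in controls (log2 fold change -0.65 ± 0.35 SE). Cd8a had 11, 4.25 and 8.51 CPM in DSF tumours, against 12.8, 17.3 and 9.53 CPM in controls (-0.74 ± 0.37 SE), and both overlapped. Foxp3, the factor of regulatory T cells, had 4.001, 1.06 and 2.35 CPM in DSF tumours, against 5.60, 4.02 and 8.53 CPM in controls (log2 fold change -1.29 ± 0.49 SE, unadjusted p = 0.0232, adjusted p = 0.407). In the other pair of arms 19 of 19 T cell genes were higher in the combination than under anti-PD-1 alone, 4 at that p, with a median of 0.48, and the interaction was above 0 at that p for 10.

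Among NK and cytotoxic genes 10 of 15 were lower, 5 at an unadjusted p under 0.05, with a median of -0.86 (-0.19 without control replicate 2). At that p there were 3 lower ones without DSF replicate 2 and 8 without control replicate 3. The other 5 members were higher, 0 of them at that p, and for 1 all DSF libraries lay above all controls. The members named next are all among the lower ones. The activating receptor Klrk1 (NKG2D) had 7.61, 2.93 and 3.89 CPM in DSF tumours, against 13, 17.7 and 12 CPM in controls (log2 fold change -1.56 ± 0.39 SE, unadjusted p = 0.00216, adjusted p = 0.245), with no overlap. The granule gene Nkg7 had 6.71, 3.50 and 5.35 CPM in DSF tumours, against 8.59, 12.4 and 7.35 CPM in controls (log2 fold change -0.86 ± 0.34 SE, unadjusted p = 0.0282, adjusted p = 0.426). The effector gene Gzmb had 36.7, 23.5 and 40.5 CPM in DSF tumours, against 46.2, 77.5 and 29.9 CPM in controls, and Prf1 8.71, 3.56 and 6.89 CPM in DSF tumours, against 13.1, 19.5 and 5.24 CPM in controls. Both overlapped between groups (log2 fold changes -0.61 ± 0.30 SE and -0.98 ± 0.45 SE). Of 13 checkpoint genes 10 were lower, 5 at an unadjusted p under 0.05 and 2 without DSF replicate 2 or control replicate 1, with a median of -0.55. It was -0.35 without control replicate 2 and -0.20 with the covariates. Lag3, an inhibitory receptor that binds MHC class II, had 2.39, 1.56 and 2.71 CPM in DSF tumours, against 4.87, 5.94 and 4.001 CPM in controls (log2 fold change -1.15 ± 0.31 SE, unadjusted p = 0.00304, adjusted p = 0.247). Cd86, the ligand of CD28 and CTLA-4 on antigen-presenting cells, had 18.7, 12.7 and 19.1 CPM in DSF tumours, against 28.3, 26.4 and 25.1 CPM in controls (log2 fold change -0.66 ± 0.18 SE, unadjusted p = 0.00343, adjusted p = 0.253). Pdcd1, the gene of PD-1, had 2.77, 0.812 and 1.32 CPM in DSF tumours, against 3.53, 4.46 and 2.77 CPM in controls (log2 fold change -1.13 ± 0.46 SE, unadjusted p = 0.0309, adjusted p = 0.433). Cd274, its ligand, had 81.1, 45 and 72.7 CPM in DSF tumours, against 99.7, 120.00 and 70.9 CPM in controls (log2 fold change -0.55 ± 0.23 SE, unadjusted p = 0.035, adjusted p = 0.444). The groups overlapped for Cd274, and for Pdcd1 the highest DSF library was level with the lowest control.

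B and plasma cell genes were lower in 7 of 7 tested cases, 2 at an unadjusted p under 0.05, at very low levels. They took 0.000553 to 0.00245% of the counts in DSF libraries and 0.00237 to 0.00277% in controls, with Ms4a1 and Blk among the members listed at 0 in DSF replicate 3. Fcrla, a B cell Fc receptor-like gene, had 0.323, 0.500 and 0.440 CPM in DSF tumours, against 1.22, 1.05 and 1.59 CPM in controls (log2 fold change -1.60 ± 0.50 SE, unadjusted p = 0.00814, adjusted p = 0.321). Mast cell and eosinophil genes were lower in 8 of 10 cases, 0 at that p and 5 without overlap, with a median of -0.74 (-0.19 with the covariates) and sums of 0.0129 to 0.0191% in DSF and 0.0230 to 0.0248% in control libraries. Epx was listed at 0 in all DSF libraries and in control replicates 1 and 2.

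Dendritic cell genes split. Of 12, 7 were lower and 5 higher, with a median of -0.25, which was 0.04 without control replicate 3 and 0.01 with the covariates. Siglech and Ccr9, both genes of plasmacytoid dendritic cells, were among the lower ones. Siglech had 0.516, 0.562 and 0.660 CPM in DSF tumours, against 1.28, 2.17 and 3.06 CPM in controls (log2 fold change -1.89 ± 0.55 SE, unadjusted p = 0.00545, adjusted p = 0.286). Ccr9 had 0.194, 0.437 and 1.03 CPM in DSF tumours, against 1.04, 2.35 and 2.88 CPM in controls (log2 fold change -1.92 ± 0.69 SE, unadjusted p = 0.0178, adjusted p = 0.387). Itgax (CD11c) had 45.3, 11.7 and 28.2 CPM in DSF tumours, against 84.2, 63.3 and 42.4 CPM in controls (log2 fold change -1.16 ± 0.39 SE). Flt3, the growth factor receptor of dendritic cell progenitors, was higher, with 45.3, 16 and 24.4 CPM in DSF tumours, against 24.6, 6.38 and 7.53 CPM in controls (log2 fold change 1.15 ± 0.48 SE, unadjusted p = 0.0352, adjusted p = 0.444), but control replicate 1 lay within the DSF values. Under the antibody Siglech had 2.92, 3.50 and 4.17 CPM in combination tumours, against 4.03, 0.847 and 1.75 CPM under anti-PD-1 alone (interaction 2.57 ± 0.75 SE, unadjusted p = 0.00546).

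Macrophage genes differed by gene: 9 of 16 were lower and 7 higher, with a median of -0.07, or -0.48 without DSF replicate 2, and between 0.03 and 0.14 without DSF replicate 1, DSF replicate 3, control replicate 2 or control replicate 3. The list took 0.319 to 0.477% of the counts in DSF libraries and 0.267 to 0.401% in controls, with 0 members at 0. Fcgr1, the high-affinity IgG receptor, had 36.4, 45.6 and 27.9 CPM in DSF tumours, against 46.9, 66.7 and 78.2 CPM in controls (log2 fold change -0.80 ± 0.25 SE, unadjusted p = 0.00753, adjusted p = 0.313). The complement genes C1qb and C1qc were also uneven. C1qb had 178, 195 and 103 CPM in DSF tumours, against 155, 257 and 317 CPM in controls (log2 fold change -0.61 ± 0.27 SE). C1qc had 176, 207 and 114 CPM in DSF tumours, against 178, 260.2 and 315 CPM in controls (-0.60 ± 0.25 SE). The complement genes overlapped, with control replicate 1 as low as DSF tumours. Adgre1 (F4/80) had 28, 43.1 and 12.7 CPM in DSF tumours, against 23.1, 48.3 and 65.2 CPM in controls (log2 fold change -0.70 ± 0.46 SE, unadjusted p = 0.153, adjusted p = 0.617). Arg1 (arginase), a gene of alternatively activated macrophages, was higher, with 103, 387 and 193 CPM in DSF tumours, against 35.9, 113 and 147 CPM in controls (log2 fold change 1.21 ± 0.54 SE, unadjusted p = 0.0483, adjusted p = 0.468). So was the lectin gene Chil3, with 4.90, 47.8 and 5.21 CPM in DSF tumours, against 1.16, 1.18 and 1.41 CPM in controls (log2 fold change 3.94 ± 1.03 SE, unadjusted p = 0.0027, adjusted p = 0.247). Both values rest largely on DSF replicate 2, and without it they were 0.60 (unadjusted p = 0.261) and 2.02 (unadjusted p = 0.0175). Chil3 had 8.41, 44.1 and 8.52 CPM in combination tumours, against 2.61, 2.12 and 0.782 CPM under anti-PD-1 alone in the other pair of arms (log2 fold change 3.46 ± 0.99 SE), where 1 combination library carried most of the level.

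CXCR2, the receptor that calls neutrophils, its chemokines and granulopoietic and related cytokines were higher in 12 of 12 cases, but only 2 at an unadjusted p under 0.05, with a median of 0.85. The median was 0.37 without control replicate 3 and 1.49 without control replicate 1, where 9 were at that p, against 2 or 3 without any other library. Cxcl3 had 11.8, 14.5 and 22.7 CPM in DSF tumours, against 5.30, 8.24 and 1.29 CPM in controls (log2 fold change 1.72 ± 0.55 SE, unadjusted p = 0.00985, adjusted p = 0.33). Ppbp, a platelet chemokine, had 1.55, 10.1 and 5.13 CPM in DSF tumours, against 0.670, 1.24 and 0.882 CPM in controls (log2 fold change 2.58 ± 0.65 SE, unadjusted p = 0.00226, adjusted p = 0.245). Neither overlapped. Cxcl1 had 127, 49.9 and 124 CPM in DSF tumours, against 115, 25.3 and 22.7 CPM in controls (log2 fold change 0.88 ± 0.56 SE, unadjusted p = 0.142, adjusted p = 0.603). Cxcl5 had 109, 44 and 114 CPM in DSF tumours, against 92, 44.5 and 8.41 CPM in controls (log2 fold change 0.88 ± 0.62 SE, unadjusted p = 0.184, adjusted p = 0.652). The granulocyte growth factor Csf3 had 143, 67.9 and 174 CPM in DSF tumours, against 140.03, 60.6 and 13 CPM in controls (log2 fold change 0.85 ± 0.67 SE, unadjusted p = 0.234, adjusted p = 0.694). In these 3 genes control replicate 1 was near DSF replicates 1 and 3, DSF replicate 2 was lower, and the groups overlapped. The other pair of arms had a median of -0.74, and the interaction was below 0 at an unadjusted p under 0.05 for 7 of the 12, among them Cxcl1 (-2.20 ± 0.79 SE, unadjusted p = 0.0179).

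Neutrophil genes followed the same division. Of 17, 12 were higher with DSF, 2 at an unadjusted p under 0.05, with a median of 0.31 (0.20 without DSF replicate 1, 0.08 without control replicate 3 with 0 at that p, and 0.77 without control replicate 1 with 9). Without DSF replicate 2 the median was 0.39, but 3 members were lower and 1 higher at that p. The list took 0.0759 to 0.103% of the counts in DSF libraries and 0.0347 to 0.103% in controls, with Elane at 0 in DSF replicate 3. Of the calprotectin genes, S100a8 had 76.3, 83.6 and 61.8 CPM in DSF tumours, against 89.1, 42.7 and 23.2 CPM in controls (log2 fold change 0.52 ± 0.38 SE). S100a9 had 188, 173 and 149 CPM in DSF tumours, against 194, 99.6 and 40.1 CPM in controls (0.61 ± 0.41 SE), with control replicate 1 the highest of the 6 libraries in both. Lcn2 (lipocalin) had 103, 216 and 114 CPM in DSF tumours, against 78.9, 99.999 and 22.4 CPM in controls (log2 fold change 1.11 ± 0.48 SE, unadjusted p = 0.0406, adjusted p = 0.454). Between the combination and anti-PD-1 alone 11 of the 17 were lower at an unadjusted p under 0.05, with a median of -1.33. There S100a8 had 15.4, 26 and 20.9 CPM in combination tumours, against 80.1, 104 and 90.6 CPM under anti-PD-1 alone (-2.15 ± 0.39 SE, interaction -2.66 ± 0.54 SE, unadjusted p = 0.00046), without overlap.

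Clock genes and their outputs were higher in 14 of 17 cases, 11 at an unadjusted p under 0.05 and 8 without overlap. The median was 0.50, 0.52 without DSF replicate 2 (9 at that p) and 0.31 with the covariates, and 8 to 11 members were at that p with 1 library left out. Nr1d1 (REV-ERB alpha), the repressor of Arntl, had 68.8, 80.8 and 67.2 CPM in DSF tumours, against 40.7, 30.1 and 28.3 CPM in controls (log2 fold change 1.13 ± 0.24 SE, unadjusted p = 0.000581, adjusted p = 0.187). Nr1d2 had 109, 92.5 and 134 CPM in DSF tumours, against 85.3, 82.4 and 70.2 CPM in controls (log2 fold change 0.49 ± 0.15 SE, unadjusted p = 0.00839, adjusted p = 0.321). Dbp, an output factor of the PAR bZIP family, had 6.52, 13 and 9.60 CPM in DSF tumours, against 5.54, 4.33 and 3.53 CPM in controls (log2 fold change 1.12 ± 0.29 SE, unadjusted p = 0.00276, adjusted p = 0.247). Tef, of the same family, had 62.9, 75.4 and 64.9 CPM in DSF tumours, against 60.1, 44.8 and 46.8 CPM in controls (log2 fold change 0.42 ± 0.13 SE, unadjusted p = 0.00783, adjusted p = 0.319). None of the 4 genes overlapped between groups, although control replicate 1 lay close to the DSF range for Tef.

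Of the period genes, which repress CLOCK and ARNTL, Per1 had 57, 47.6 and 46.1 CPM in DSF tumours, against 37.7, 24.7 and 37.1 CPM in controls (log2 fold change 0.60 ± 0.20 SE, unadjusted p = 0.0135, adjusted p = 0.354). Per3 had 39.5, 38 and 38.6 CPM in DSF tumours, against 33.4, 21.1 and 27.6 CPM in controls (log2 fold change 0.50 ± 0.17 SE, unadjusted p = 0.0151, adjusted p = 0.367), and neither overlapped. Per2 had 16.4, 17.6 and 18.8 CPM in DSF tumours, against 18.1, 9.29 and 7.94 CPM in controls (log2 fold change 0.58 ± 0.26 SE, unadjusted p = 0.0489, adjusted p = 0.468), with control replicate 1 at the level of DSF tumours. Without control replicate 1 the log2 fold change of Per2 was 1.06, and it passed by edgeR with an adjusted p that rounds to 0.05. It did not pass in that fit once X chromosome genes were left out before adjustment. Clock had 72.6, 66.2 and 64.2 CPM in DSF tumours, against 61.8, 42.5 and 49.9 CPM in controls (log2 fold change 0.40 ± 0.13 SE, unadjusted p = 0.00957, adjusted p = 0.33). Its partner Arntl had 21.9, 19.7 and 16.2 CPM in DSF tumours, against 21.1, 19.3 and 17.6 CPM in controls (log2 fold change -0.002 ± 0.14 SE, unadjusted p = 0.989, adjusted p = 0.998), which did not differ beyond the spread. Bhlhe40 (DEC1), a repressor also induced by hypoxia, had 256, 185 and 233 CPM in DSF tumours, against 187, 116 and 73.2 CPM in controls (log2 fold change 0.84 ± 0.27 SE, unadjusted p = 0.0103, adjusted p = 0.332). Nfil3, the antagonist of DBP, had 56.1, 48.6 and 51.8 CPM in DSF tumours, against 41.5, 37.9 and 29 CPM in controls (log2 fold change 0.53 ± 0.15 SE, unadjusted p = 0.00447, adjusted p = 0.272).

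Under the antibody the clock list had a median of -0.19, with 3 lower and 0 higher at an unadjusted p under 0.05, and the interaction was below 0 at that p for 8 of 17. Nr1d1 had 49.1, 37.1 and 61.7 CPM in combination tumours, against 38.5, 61.9 and 36.2 CPM under anti-PD-1 alone (log2 fold change 0.12 ± 0.23 SE, interaction -1.01 ± 0.33 SE, unadjusted p = 0.011), with overlapping groups. The hour of collection is not given for any tumour, and its part in these levels was not tested.

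Glucocorticoid-responsive genes were higher in 16 of 16 cases, 7 at an unadjusted p under 0.05, with a median of 0.49, or 0.22 without DSF replicate 2 (7 at that p) and 0.25 with the covariates. Klf9, a Krüppel-like factor gene with glucocorticoid response elements, had 19.5, 36.1 and 23.2 CPM in DSF tumours, against 12.1, 11.6 and 11.2 CPM in controls (log2 fold change 1.17 ± 0.22 SE, unadjusted p = 0.000212, adjusted p = 0.187), and the controls were tightly grouped below all DSF libraries. Ddit4 (REDD1), an inhibitor of mTOR signalling, had 44.1, 40.7 and 47.1 CPM in DSF tumours, against 29.7, 31.7 and 20.4 CPM in controls (log2 fold change 0.69 ± 0.19 SE, unadjusted p = 0.00429, adjusted p = 0.272). Dusp1, a MAP kinase phosphatase gene, had 61.3, 37.5 and 52.5 CPM in DSF tumours, against 43.1, 29.8 and 22 CPM in controls (log2 fold change 0.67 ± 0.24 SE, unadjusted p = 0.018, adjusted p = 0.387), with overlap. Nr3c1, the receptor itself, had 141, 145 and 154 CPM in DSF tumours, against 134, 119 and 124 CPM in controls (log2 fold change 0.22 ± 0.09 SE, unadjusted p = 0.0229, adjusted p = 0.406). Commonly used target genes differed less. Fkbp5 had 207, 169 and 168 CPM in DSF tumours, against 169, 164 and 171 CPM in controls. Tsc22d3 had 36.8, 52.5 and 33.4 CPM in DSF tumours, against 34, 29 and 37.6 CPM in controls, and Sgk1 137, 124 and 154 CPM in DSF tumours, against 138, 130.3 and 120.4 CPM in controls (log2 fold changes 0.11 ± 0.14 SE, 0.29 ± 0.19 SE and 0.09 ± 0.10 SE in that order). The groups overlapped for each of these. The interaction was below 0 at an unadjusted p under 0.05 for 7 of the 16.

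**Figure D3:**
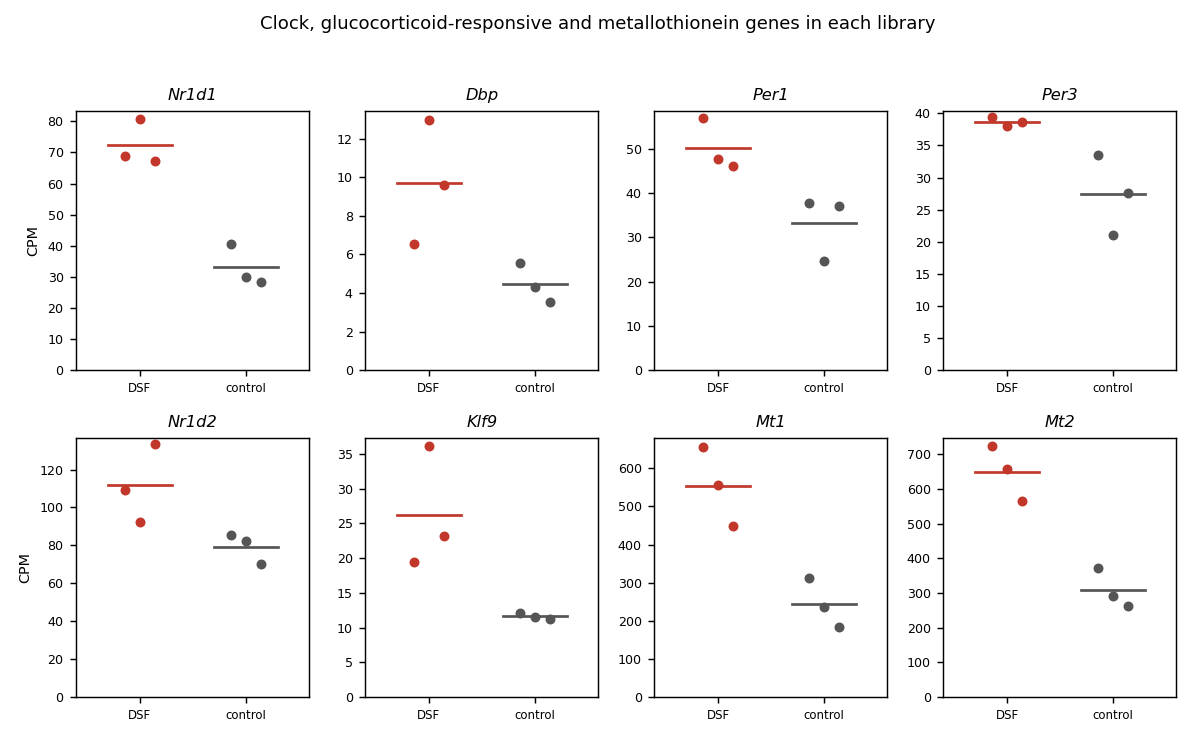
Level in CPM of clock, glucocorticoid-responsive and metallothionein genes in each library (points) of DSF (left) and control tumours (right), with the group mean as a line. All DSF points of Nr1d1, Klf9, Mt1 and Mt2 lie above all control points.

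The metallothionein genes Mt1 and Mt2 were higher in every DSF library than in any control. Mt1 had 656, 557 and 449 CPM in DSF tumours, against 313, 237 and 184 CPM in controls (log2 fold change 1.18 ± 0.27 SE, unadjusted p = 0.00124, adjusted p = 0.211). Mt2 had 725, 657 and 566 CPM in DSF tumours, against 373, 291 and 263 CPM in controls (log2 fold change 1.07 ± 0.24 SE, unadjusted p = 0.000877, adjusted p = 0.195). Among the 6 libraries, DSF replicate 1 was the highest and control replicate 3 the lowest in both, and without DSF replicate 2 the log2 fold changes were 1.19 and 1.07. Per transcript length, in the deposited TPM values, Mt2 averaged 3056 in DSF and 1470 in control tumours, and Mt1 averaged 2704 in DSF and 1206 in control tumours. The promoter of Mt2 is shown above with its metal element cores. In the other pair of arms Mt1 had 159, 195 and 246 CPM in combination tumours, against 188, 383 and 297 CPM under anti-PD-1 alone (log2 fold change -0.53 ± 0.27 SE, unadjusted p = 0.0759). Its interaction was -1.71 ± 0.39 SE (unadjusted p = 0.000986, adjusted p = 0.259). Mt2 had 192, 249.9 and 331 CPM in combination tumours, against 253, 454 and 341 CPM under anti-PD-1 alone (-0.44 ± 0.24 SE, unadjusted p = 0.0897, interaction unadjusted p = 0.000867). These groups overlapped for both genes.

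Copper and zinc genes, Mt1 and Mt2 included, were little higher as a list: 13 of 17 were above 0 with a median of 0.09, and 3 had an unadjusted p under 0.05, Mt1, Mt2 and Slc39a14. Slc39a14 (ZIP14), a zinc and iron importer, had 199, 221 and 232 CPM in DSF tumours, against 191, 133 and 121 CPM in controls (log2 fold change 0.55 ± 0.17 SE, unadjusted p = 0.00721, adjusted p = 0.313), with control replicate 1 nearest to DSF tumours. The copper importer Slc31a1 (CTR1) had 88.2, 88.3 and 79.9 CPM in DSF tumours, against 90.9, 77.2 and 82.6 CPM in controls (log2 fold change 0.03 ± 0.09 SE, unadjusted p = 0.722, adjusted p = 0.935). The copper exporter Atp7a had 70.7, 55.4 and 53.8 CPM in DSF tumours, against 65.4, 55.8 and 51.2 CPM in controls (log2 fold change 0.06 ± 0.13 SE, unadjusted p = 0.655, adjusted p = 0.914). The zinc exporter Slc30a1, another target of the metal-responsive factor MTF1, had 13.4, 15.7 and 12.8 CPM in DSF tumours, against 11.9, 14.1 and 12.7 CPM in controls (log2 fold change 0.12 ± 0.47 SE, unadjusted p = 0.802, adjusted p = 0.956). The groups overlapped for all of these transporters but Slc39a14. The glucocorticoid-responsive genes above were higher in the same libraries, and their part in the metallothionein levels was not tested.

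Aldehyde dehydrogenases, the enzymes that disulfiram inhibits, had a median of 0.17, with 13 of 17 higher and 1 at an unadjusted p under 0.05, and a median of -0.33 without DSF replicate 2. That gene was Aldh6a1, of valine catabolism, with 11.9, 116 and 15.9 CPM in DSF tumours, against 9.68, 16.8 and 13.6 CPM in controls, a difference held by DSF replicate 2 (log2 fold change 1.85 ± 0.70 SE, and 0.07 without it). Aldh2, which clears acetaldehyde, had 177, 280.4 and 168 CPM in DSF tumours, against 175, 219 and 146 CPM in controls (log2 fold change 0.21 ± 0.20 SE, unadjusted p = 0.32, adjusted p = 0.755). Glutathione transferases were higher in 17 of 18 cases, 3 at that p, with a median of 0.48, or 0.03 both without DSF replicate 2 and with the covariates. Without DSF replicate 1 the median was 0.70 and 9 were higher at that p. Gsta1 had 2.13, 1.81 and 1.69 CPM in DSF tumours, against 0.365, 0.310 and 0.176 CPM in controls (log2 fold change 2.69 ± 0.46 SE, unadjusted p = 0.000105, adjusted p = 0.187). Gstm2 had 63.4, 82.3 and 77.7 CPM in DSF tumours, against 49.8, 40.6 and 59.1 CPM in controls (log2 fold change 0.58 ± 0.18 SE, unadjusted p = 0.00941, adjusted p = 0.329); both kept DSF above control without that library (log2 fold changes 2.73 and 0.51), whereas Mgst1, with 38.9, 201 and 42.7 CPM in DSF tumours, against 41.5, 44.1 and 26.8 CPM in controls, was at 0.13 without it. Members of these enzyme families are close copies, so reads may be split among them.

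NRF2 targets, the genes of the oxidant response, had a median of 0.13, with 1 lower and 2 higher of 19 at an unadjusted p under 0.05. The lower one was Txnrd1 (thioredoxin reductase), with 189.9, 159.97 and 181 CPM in DSF tumours, against 218, 227 and 216 CPM in controls (log2 fold change -0.32 ± 0.08 SE, unadjusted p = 0.00268, adjusted p = 0.247). Its groups did not overlap. Nqo1, the usual marker of the response, had 5.87, 7.56 and 7.19 CPM in DSF tumours, against 5.73, 5.02 and 6.71 CPM in controls (log2 fold change 0.24 ± 0.23 SE, unadjusted p = 0.316, adjusted p = 0.753). Proteasome genes and the p97 complex, which a copper complex of a disulfiram metabolite is known to disturb through NPLOC4, were lower in 29 of 32 cases by little. The median was -0.10, 1 had an unadjusted p under 0.05, and 7 did not overlap, while without DSF replicate 2 there were 21 lower and 0 at that p. Psmb4 had 164, 153 and 169.7 CPM in DSF tumours, against 179, 179 and 198 CPM in controls (log2 fold change -0.19 ± 0.08 SE, unadjusted p = 0.0407, adjusted p = 0.454). Vcp (p97) had 496, 539.8 and 435 CPM in DSF tumours, against 552, 494 and 533 CPM in controls (log2 fold change -0.10 ± 0.12 SE, unadjusted p = 0.398, adjusted p = 0.801). Nploc4 had 120.4, 113 and 94.2 CPM in DSF tumours, against 122, 103 and 126 CPM in controls (log2 fold change -0.10 ± 0.10 SE, unadjusted p = 0.368, adjusted p = 0.788).

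Disulfiram also blocks the pore protein gasdermin D. Of 19 inflammasome and gasdermin genes 14 were lower, 3 at an unadjusted p under 0.05, and 2 were higher at that p, with a median of -0.38 (-0.15 without control replicate 3, -0.17 with the covariates). Gsdmd had 59.1, 46.8 and 61.2 CPM in DSF tumours, against 78, 80.6 and 62.8 CPM in controls (log2 fold change -0.40 ± 0.16 SE, unadjusted p = 0.0299, adjusted p = 0.426). Casp1, which cleaves it, had 65.1, 51.3 and 93.2 CPM in DSF tumours, against 83.4, 125 and 96.7 CPM in controls (log2 fold change -0.54 ± 0.21 SE, unadjusted p = 0.0227, adjusted p = 0.405). Il18bp, the interferon-induced decoy of interleukin 18, had 30.7, 21.7 and 30.2 CPM in DSF tumours, against 48.7, 77.4 and 39.1 CPM in controls (log2 fold change -0.9996 ± 0.26 SE, unadjusted p = 0.00282, adjusted p = 0.247). Il18bp and Gsdmd did not overlap. NF-kB genes had a median of 0.02, with 2 lower and 2 higher of 18 at that p; the inhibitor Nfkbia had 233, 171 and 229 CPM in DSF tumours, against 193, 167 and 126 CPM in controls (log2 fold change 0.38 ± 0.16 SE, unadjusted p = 0.0379, adjusted p = 0.45). The inflammatory cytokine gene Tnf, a target, had 6.07, 2.50 and 5.50 CPM in DSF tumours, against 8.95, 12.2 and 8.71 CPM in controls (log2 fold change -1.09 ± 0.33 SE, unadjusted p = 0.00681, adjusted p = 0.305).

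DNA methylation genes had a median of -0.05, with 1 lower and 1 higher of 11 at an unadjusted p under 0.05. Tet2, a demethylating dioxygenase gene, was the higher one, with 49, 43.5 and 49.3 CPM in DSF tumours, against 37.2, 36.2 and 34.3 CPM in controls (log2 fold change 0.40 ± 0.11 SE, unadjusted p = 0.00391, adjusted p = 0.271) and no overlap, and it was 0.47 on the log2 scale without DSF replicate 2. Heat shock and unfolded protein response genes had a median of 0.08, with 1 lower and 2 higher of 22 at that p, and 26 respiratory chain genes a median of 0.04 with 0 at that p.

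Hypoxia and glycolysis genes were higher in 28 of 28 cases, 7 at an unadjusted p under 0.05 and 6 without overlap, with a median of 0.28 (0.30 without DSF replicate 2, 9 at that p). With the covariates the median was 0.12, and 2 members were at that p without control replicate 3 and 12 without control replicate 1. Slc2a1 (GLUT1), the glucose transporter, had 669, 413 and 586 CPM in DSF tumours, against 501, 320.1 and 234 CPM in controls (log2 fold change 0.66 ± 0.28 SE, unadjusted p = 0.0374, adjusted p = 0.449). Hk2, which traps glucose in the cell, had 134, 123 and 121 CPM in DSF tumours, against 118, 98.6 and 69.8 CPM in controls (log2 fold change 0.40 ± 0.18 SE, unadjusted p = 0.0435, adjusted p = 0.462). Bnip3, a mitophagy receptor, had 368, 338 and 367 CPM in DSF tumours, against 276, 281 and 164 CPM in controls (log2 fold change 0.57 ± 0.21 SE, unadjusted p = 0.0173, adjusted p = 0.387). Ankrd37, a target of HIF-1, had 16.3, 13.8 and 18.9 CPM in DSF tumours, against 9.62, 10.3 and 10.5 CPM in controls (log2 fold change 0.69 ± 0.22 SE, unadjusted p = 0.00943, adjusted p = 0.329). Bnip3, Ankrd37 and Hk2 were higher in all DSF libraries than in any control, whereas control replicate 1 lay within the DSF values for Slc2a1. In the combination 28 of 28 were lower than under anti-PD-1 alone, 10 at that p, with a median of -0.30, and the interaction was below 0 at that p for 15. Bnip3 had 199, 144 and 203 CPM in combination tumours, against 219, 296 and 282 CPM under anti-PD-1 alone there (interaction -1.12 ± 0.29 SE, unadjusted p = 0.00268).

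Replication and mitosis genes were lower in 23 of 28 cases by a median of -0.11, 4 at an unadjusted p under 0.05, and without DSF replicate 2 the median was -0.03 with 1 at that p. Without DSF replicate 1 it was -0.22 and without control replicate 1 -0.02. Cdk1, the mitotic kinase, had 132, 119 and 144 CPM in DSF tumours, against 153, 167 and 170.1 CPM in controls (log2 fold change -0.31 ± 0.10 SE, unadjusted p = 0.0113, adjusted p = 0.343). The replicative helicase gene Mcm4 had 162, 136 and 163 CPM in DSF tumours, against 188, 175 and 189 CPM in controls and Mcm2 152, 133 and 145 CPM in DSF tumours, against 167, 151 and 181 CPM in controls (log2 fold changes -0.26 ± 0.09 SE and -0.21 ± 0.09 SE). The groups did not overlap for Cdk1 and Mcm4. Cdca7, a target gene of MYC and E2F, had the second smallest p of all genes, with 57.8, 46.9 and 53.2 CPM in DSF tumours, against 83.7, 76.3 and 86.4 CPM in controls (log2 fold change -0.64 ± 0.10 SE, unadjusted p = 5.11e-05, adjusted p = 0.187) and every DSF library below every control. The BCL2 family had 4 of 14 lower at that p, which were led by the Bcl2a1 copies of haematopoietic cells. Bcl2a1d had 9.68, 7.56 and 10.9 CPM in DSF tumours, against 19, 18.5 and 18.5 CPM in controls (log2 fold change -0.99 ± 0.18 SE, unadjusted p = 0.000225, adjusted p = 0.187). Bcl2a1a had 7.23, 5.37 and 6.53 CPM in DSF tumours, against 11.5, 12 and 11.8 CPM in controls (log2 fold change -0.88 ± 0.20 SE); these are near-identical genes whose reads may be shared. Under the antibody Bcl2a1d had 23, 21.8 and 21.2 CPM in combination tumours, against 19.4, 12.3 and 13.6 CPM under anti-PD-1 alone (0.54 ± 0.18 SE, interaction unadjusted p = 9.98e-05).

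DSF replicate 2 carried adipocyte transcripts. The 20 adipocyte markers took 0.0442, 1.65 and 0.0321% of the counts in DSF replicates 1 to 3, against 0.0400, 0.140 and 0.0649% in control replicates 1 to 3. The mean was 0.576% in DSF and 0.0816% in control libraries, a difference of 0.494 percentage points. Without DSF replicate 2 the DSF mean was 0.0381%. That library was singled out for these transcripts, so no test of the share is given. Adipoq (adiponectin) had 1.81, 465 and 0.807 CPM in DSF tumours, against 1.71, 23.7 and 5.94 CPM in controls, and the fatty acid carrier Fabp4 30.6, 2888 and 29.8 CPM in DSF tumours, against 29.6, 182 and 72.8 CPM in controls. For both, the other DSF libraries were at the level of control replicate 1 or below, and the log2 fold changes were 3.91 ± 1.78 SE and 3.37 ± 1.51 SE with and -2.96 and -1.64 without that library. In DSF replicate 2, 145 genes exceeded each of the other 11 libraries by more than 2 log2 units, led by Ces1f and Thrsp.

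**Figure D4:**
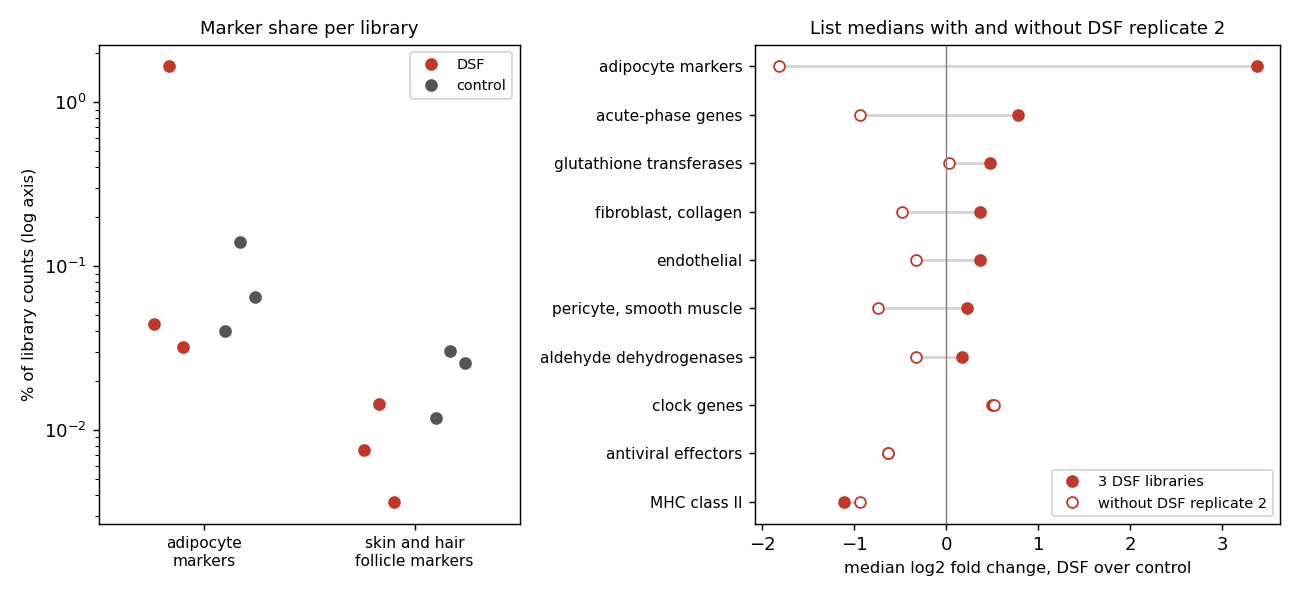
Left, share of library counts in adipocyte and in skin markers for each DSF and control library, in % on a log axis; right, median log2 fold change of gene lists with all 3 DSF libraries (filled) and without DSF replicate 2 (open). DSF replicate 2 lies at 1.65% adipocyte markers, and the adipocyte, acute-phase, collagen and endothelial medians change sign without it.

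Stromal lists depended on that library. All 19 tested adipocyte markers were higher with it (median 3.37) and all 19 lower without it (-1.82). Fibroblast and collagen genes had a median of 0.37 with and -0.48 without it, endothelial genes 0.37 and -0.33, pericyte and smooth muscle genes 0.23 and -0.74, and acute-phase genes 0.78 and -0.94. Col3a1 (type III collagen) had 249, 3932 and 568 CPM in DSF tumours, against 1004, 1567 and 836 CPM in controls (log2 fold change 0.48 ± 0.78 SE, and -1.47 without it, unadjusted p = 0.00934), and Hp (haptoglobin) 49, 2132 and 23 CPM in DSF tumours, against 30.7, 149 and 73.9 CPM in controls (3.12 ± 1.41 SE, and -1.21 without it). Mmp3 (stromelysin) did not turn, with 579.9, 506 and 634 CPM in DSF tumours, against 422, 399 and 257 CPM in controls (log2 fold change 0.67 ± 0.19 SE, unadjusted p = 0.0044, adjusted p = 0.272) and no overlap.

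Skin markers were lower in DSF tumours. Of 17 tested skin and hair follicle markers 16 were lower, 4 at an unadjusted p under 0.05, with a median of -1.49, or -1.90 without DSF replicate 2 (10 at that p) and -1.08 without DSF replicate 3 (1 at that p). The 20 markers in the table took 0.00757, 0.0144 and 0.00365% of the counts in DSF replicates 1 to 3 and 0.0119, 0.0302 and 0.0255% in control replicates 1 to 3 (exact permutation p = 0.2, two-sided, where 0.1 is the smallest that 3 against 3 can give). Flg (filaggrin) had 3.36, 0.812 and 1.03 CPM in DSF tumours, against 7.25, 9.72 and 8.35 CPM in controls (log2 fold change -2.27 ± 0.72 SE, unadjusted p = 0.00925, adjusted p = 0.329). Krt1 had 8.13, 15 and 3.23 CPM in DSF tumours, against 22.7, 56.5 and 31.6 CPM in controls (log2 fold change -2.06 ± 0.73 SE, unadjusted p = 0.0165, adjusted p = 0.376). The hair keratins Krt71, Krt25 and Krt27 were listed at 0 in most of the libraries. With scores of skin and fat genes in the fit, medians not given above were -0.55 for PARP genes, -0.36 for sensors, -0.96 for GTPases, -0.77 for MHC class II and -0.49 for MHC class I genes. Those of NK, B cell and macrophage genes were -0.66, -0.66 and -0.05, and those of the CXCR2 and neutrophil lists 0.65 and 0.31. In the other pair of arms 17 of 17 skin markers were higher in the combination than under anti-PD-1 alone, with a median of 2.05. Of these, 12 had an unadjusted p under 0.05, and the interaction was above 0 at that p for 15. The covariates entered only the fit of DSF against control. The part of skin and fat in the combination and in the interactions was not tested. The 4 erythrocyte genes tested were higher, 2 at an unadjusted p under 0.05 and 1 without overlap, with a median of 2.05. Without DSF replicate 2 the median was 1.14 and 0 were at that p, as was so without any 1 of the controls. Hba-a2 had 94.6, 265 and 38.1 CPM in DSF tumours, against 13.3, 47.4 and 35.5 CPM in controls (log2 fold change 2.05 ± 0.92 SE, unadjusted p = 0.0474, adjusted p = 0.467).

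Control replicates 2 and 3 had lower levels along one part of the X chromosome. Of the genes tested, 434 lie on X (3.07%), by RefSeq GRCm38.p6. With these genes in chromosome order and cut into 10 equal bins, the medians of the first 5 bins, relative to each gene's median over the 12 libraries and to the autosomes, ran from -0.50 to -0.33 on the log2 scale in control replicate 2 and from -0.49 to -0.38 in control replicate 3. Control replicate 1 stood at 0.08 to 0.12 there. Over the whole X the medians were -0.07 in control replicate 2 and -0.20 in control replicate 3. Over whole autosomes, which were not cut into bins, the medians lay between -0.13 and 0.20 in the 12 libraries. Both ends were in control replicate 2, at chromosomes 8 and 7, and its chromosome 10 stood at 0.19. Among the 773 genes higher in DSF tumours 47 (6.08%) are on X, 42 of them among its first 219 genes, against 10 (1.37%) of the 728 lower genes. The signalling kinase gene Irak1, on X, had 139, 136 and 132 CPM in DSF tumours, against 138, 85.3 and 82.7 CPM in controls. Here control replicate 1 matched the DSF tumours and the other controls were lower.

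**Figure D5:**
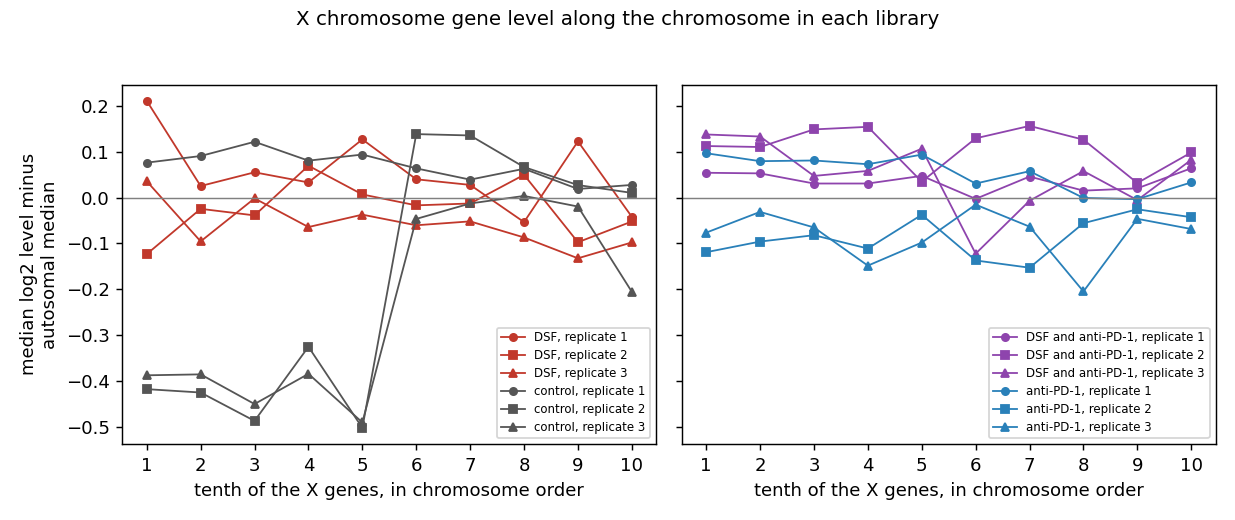
Median log2 level of X chromosome genes minus the autosomal median, in 10 equal bins of the genes in chromosome order, for each library (lines), with DSF and control tumours on the left and combination and anti-PD-1 tumours on the right. Control replicates 2 and 3 lie between -0.50 and -0.33 in the first 5 bins, and control replicate 1 lies above 0 there.

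X genes made up most of the calls that appear without control replicate 1. In that fit edgeR called 35 genes, 21 of them (60%) on X and all 21 among its first 219 genes; with X genes left out before adjustment 2 genes were called. With all 6 libraries and X genes left out, 0 were called, with a smallest adjusted p of 0.181. Some genes off the X that were called without control replicate 1 had the same split of controls. The cytokine gene Tslp had 221, 222 and 289.5 CPM in DSF tumours, against 224, 43.7 and 35.4 CPM in controls. Ptgs1 (cyclooxygenase 1) had 69.1, 53.9 and 71.9 CPM in DSF tumours, against 54.6, 15.8 and 15.3 CPM in controls. For Tslp and Ptgs1, DSF tumours and control replicate 1 were high and control replicates 2 and 3 low. Leaving out control replicate 1 favours calls of such genes, so they do not tell how far the split reaches beyond X. What separates the controls was not tested.

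Without DSF replicate 1, edgeR called 8 genes. Parp14, Serpina3f, Cybb and Mpeg1 were lower in DSF tumours. Cybb, of the phagocyte oxidase, had 76.6, 38.3 and 34.4 CPM in DSF tumours, against 105, 129 and 111 CPM in controls, and Mpeg1, a macrophage pore protein gene, 129, 75.2 and 61.6 CPM in DSF tumours, against 169.9, 232 and 183 CPM in controls; neither overlapped in the 6 libraries. The other called genes were predicted loci, higher in DSF replicates 2 and 3 only, for example Gm46620 with 30.6, 171 and 192 CPM in DSF tumours, against 42.3, 38.6 and 47.2 CPM in controls and Gm41844 with 16.3, 234 and 223 CPM in DSF tumours, against 24.8, 23.2 and 38.8 CPM in controls.

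Other lower genes named for their small p belonged to several functions. Serpina3f, a protease inhibitor gene induced by interferon gamma, had 44.9, 23.9 and 30.7 CPM in DSF tumours, against 71.6, 84.3 and 62.5 CPM in controls (log2 fold change -1.13 ± 0.21 SE, unadjusted p = 0.000181, adjusted p = 0.187). Crybg1 (AIM1) had 137, 114 and 111 CPM in DSF tumours, against 161, 200.4 and 201 CPM in controls (log2 fold change -0.64 ± 0.11 SE, unadjusted p = 0.00015, adjusted p = 0.187). Ptpn6 (SHP-1), the phosphatase of leukocyte inhibitory receptors, had 84.3, 75.5 and 71 CPM in DSF tumours, against 107, 125 and 106 CPM in controls (log2 fold change -0.55 ± 0.11 SE, unadjusted p = 0.000293, adjusted p = 0.187). Pvrig, an inhibitory receptor gene of T and NK cells, had 2.65, 1.37 and 1.83 CPM in DSF tumours, against 5.30, 6.25 and 5.12 CPM in controls (log2 fold change -1.51 ± 0.29 SE, unadjusted p = 0.000316, adjusted p = 0.187). Cd180, a TLR4-like receptor gene of B cells and myeloid cells, had 7.87, 5.12 and 4.11 CPM in DSF tumours, against 13.4, 18.5 and 14.3 CPM in controls (log2 fold change -1.43 ± 0.28 SE, unadjusted p = 0.000298, adjusted p = 0.187). None of these 5 genes overlapped between the groups. Pvrig was also lower in the combination than under anti-PD-1 alone, with 3.33, 3.06 and 2.50 CPM in combination tumours, against 4.57, 4.05 and 5.78 CPM under anti-PD-1 alone (-0.69 ± 0.29 SE, unadjusted p = 0.0338), whereas Cd180, with 18.5, 13.8 and 17.8 CPM in combination tumours, against 19.7, 11.1 and 15 CPM under anti-PD-1 alone, was not (0.13 ± 0.27 SE, interaction unadjusted p = 0.00183).

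Genes that ranked first among the higher ones included Slpi, a secreted protease inhibitor gene of epithelium and neutrophils, with 475, 482 and 553 CPM in DSF tumours, against 258, 231 and 164 CPM in controls (log2 fold change 1.21 ± 0.25 SE, unadjusted p = 0.000468, adjusted p = 0.187). Junb, an AP-1 subunit gene, had 291, 249.6 and 283 CPM in DSF tumours, against 219, 181 and 179 CPM in controls (log2 fold change 0.51 ± 0.10 SE, unadjusted p = 0.000341, adjusted p = 0.187). Ier3, an immediate early gene, had 222, 121 and 234 CPM in DSF tumours, against 119.9, 91.8 and 70.5 CPM in controls (log2 fold change 1.03 ± 0.26 SE, unadjusted p = 0.00221, adjusted p = 0.245), and it was 1.29 on the log2 scale without DSF replicate 2, which was its lowest DSF library. Lamb3, a laminin gene, had 9.42, 23.1 and 24.8 CPM in DSF tumours, against 8.59, 1.98 and 6.41 CPM in controls (1.75 ± 0.50 SE on the log2 scale), with the highest values in DSF replicates 2 and 3. Rbpms, an RNA-binding protein gene, had 97.5, 79.9 and 80.4 CPM in DSF tumours, against 52.7, 57.6 and 45.8 CPM in controls (log2 fold change 0.72 ± 0.14 SE, unadjusted p = 0.000335, adjusted p = 0.187) and ran the other way under the antibody, with 57.2, 52.7 and 50.8 CPM in combination tumours, against 60.9, 84.1 and 84.2 CPM under anti-PD-1 alone (-0.51 ± 0.14 SE, interaction -1.24 ± 0.20 SE, unadjusted p = 6.76e-05). Rbpms, like Cd180 and Bcl2a1d above, ranked high by its p in DSF against control. The interaction p-values of these genes are not independent of that choice.

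The transcript table was tested in the same way. Of 38276 transcripts tested, 3 (0.00784%) passed at an adjusted p of 0.0347 each, and 0 remained without DSF replicate 2. They are single predicted transcripts of Ap5m1, of the AP-5 adaptor, of Hdac4, a class IIa histone deacetylase gene, and of Ccnj, a cyclin gene. The Ap5m1 transcript had 5.27, 6.14 and 6.43 CPM in DSF tumours and was listed at 0 in all controls. The Hdac4 transcript had 3.14, 3.04 and 3.90 CPM in DSF tumours and was listed at 0 in all controls. The Ccnj transcript was listed at 0 in all DSF tumours and with 5.20, 4.70 and 2.26 CPM in controls. A value of 0 here can be a failed estimate, since reads are divided among transcripts of a gene. At the level of the gene Ap5m1 had 27.1, 25.8 and 31.7 CPM in DSF tumours, against 28.4, 25.2 and 25 CPM in controls (log2 fold change 0.11 ± 0.11 SE). Hdac4 had 52.8, 41.3 and 43.6 CPM in DSF tumours, against 42.1, 37.5 and 36.8 CPM in controls (0.24 ± 0.12 SE). Ccnj had 7.49, 5.87 and 6.67 CPM in DSF tumours, against 7.19, 7.99 and 7.59 CPM in controls (-0.18 ± 0.19 SE), and the groups overlapped for all 3 genes.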

How the data were processed

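The authors deposited expected counts and TPM values per gene and per transcript for 12 tumour libraries sequenced on the BGISEQ-500 platform. Of the deposited expected counts, 9.02% per gene and 56.1% per transcript were not whole. The submitters' processing notes name DESeq2 1.4.5, RSEM 1.2.12, Bowtie2 2.2.5 and HISAT2 2.0.4, with no role given; the genome build of the files and the use of strand are not given in the sources used here. The TPM values, deposited by the authors, served only for levels per transcript length. A control column whose name ends in 11 was read as control 1, and 0 columns of sample values were left unmatched.

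Expected counts were rounded and filtered with filterByExpr over the 4 groups, scaled by TMM and fitted with the quasi-likelihood model of edgeR 4.0.16 in R 4.3.3. The fit had a mean for each group and took in all 12 libraries, so that the groups of 3 share an estimate of the spread. Tests were two-sided, Benjamini-Hochberg adjustment ran over all features, and an adjusted p under 0.05 was a call. The scripts were tested on simulated data. DESeq2 1.42.0, limma 3.58.1, other scalings and filters, a fit of the 6 libraries alone, a replicate block, skin and adipocyte covariates and leaving out each library were the alternatives; leaving out X genes was chosen after seeing the data.

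The members and the 46 gene lists were chosen with earlier results of these data known. Named genes were drawn from the 12 of smallest p in each direction at a mean of at least 1 CPM, key genes of the lists, the 6 of smallest p in each direction without DSF replicate 2, the 8 of largest change in each direction among genes without overlap at an unadjusted p under 0.05 with and without that library, and the 5 leading genes of any alternative with calls. Ifit3, Oas3, Usp18, Cmpk2, Ifi27l2a, Dtx3l, Eif2ak2, Zbp1, Tlr9, Irf8, Socs3, Gbp4, Irgm1, Irgm2, H2-Eb1, H2-Oa, Ctss, Psmb9, Cd28, Klrk1, Lag3, Cd86, Fcrla, Itgax, Fcgr1, C1qb, C1qc, Tef, Clock, Arntl, Bhlhe40, Nfil3, Ddit4, Dusp1, Nr3c1, Slc39a14, Mgst1, Aldh6a1, Txnrd1, Psmb4, Casp1, Il18bp, Tnf, Bnip3, Ankrd37, Mcm4, Mmp3, Flg, Hp, Ces1f, Thrsp and the genes named by their transcripts were chosen after their values were seen. A few genes are not reported here. Same-numbered libraries of the DSF and control groups had correlations of their deviations from the group means of 0.39, 0.46 and 0.09. DSF replicates 1 and 2 correlated best with the control of their own number, and DSF replicate 3 did not. These values do not settle whether the numbers mark a shared block. The main fit did not pair the samples, and the replicate block was an alternative.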

Additional observations from a re-analysis of the deposited data

How the results depend on the processing

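No gene passed between DSF and control tumours (0 genes) under TMM or DESeq2 size factors, either filter, limma, a fit of the 6 libraries alone, the covariates, the replicate block or X genes left out. DESeq2 called 221 genes, and leaving out 1 library gave 0 to 35, 8 without DSF replicate 1 and 35 without control replicate 1, or 2 there with X genes left out. Genes at an unadjusted p under 0.05 numbered 480 lower and 372 higher with the 6 libraries alone, 439 and 392 with covariates, and 588 to 1201 higher with 1 library left out, the most without control replicate 1. Transcripts called numbered 3, against 0 without a filter and 0 to 14 with 1 library left out, 14 without DSF replicate 1. DESeq2 called 70 genes for the combination against anti-PD-1 and 235 for the interaction, where leaving out 1 library gave 0 to 19, with 4 when DSF replicate 1 and 19 when anti-PD-1 replicate 1 was left out. The adipocyte share difference was -0.0435 percentage points without DSF replicate 2, and -0.0435 to 0.766 with any 1 library left out. With the replicate block 716 genes were lower and 719 higher at that p, 0 were called, and the deviations of DSF replicate 3 correlated best with control replicate 1 (0.25), so not every library correlated best with its own number. Of 2507 log2 fold changes of named genes under an alternative, 35 in 18 genes changed sign. With covariates these were Ifi27l2a (-0.72), B2m (-0.13), Aldh2 (-0.13), Nqo1 (-0.13), Col3a1 (-1.22), Krt8 (-0.028), Krt18 (-0.13), Adipoq (-0.84), Fabp4 (-0.074), Ccnj (0.083) and Epcam (0.97). Col3a1 was -0.41 by limma and -0.046 with the block, and Arntl 0.00083 by DESeq2 and 0.0023 with 6 libraries. With 1 library left out, and DSF replicate 2 the 1 that turned the sign, Ifi27l2a ranged from -1.52 to 2.32, H2-K1 from -0.20 to 0.052, Aldh2 from -0.054 to 0.40, Col3a1 from -1.47 to 0.98, Adipoq from -2.96 to 5.38, Fabp4 from -1.64 to 4.30 and Hp from -1.21 to 3.85. With others left out B2m ranged from -0.050 to 0.20, Arntl from -0.11 to 0.13, Slc31a1 from -0.0012 to 0.12, Atp7a from -0.075 to 0.19, Vcp from -0.16 to 0.00082, Nploc4 from -0.17 to 0.023 and Epcam from -1.30 to 0.23. List medians changed sign for 11 of 46 lists with covariates, 9 without DSF replicate 2 and 0 to 4 under the other alternatives. The covariates were scores of the skin and adipocyte lists themselves. Sign changes of those lists, and of Adipoq and Fabp4, with covariates therefore follow from how that fit was built. The cause of the other differences was not tested. Genes near 1 CPM rest on few counts.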
